A study of Mus musculus with 142 samples.

Results

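∆BOSN1.COSN123 and ∆A.BOSN1.COSN123 are mouse embryonic stem cell lines that lost B-OSN-1, the upstream of the pair of OSN sites in ERCE B, while the downstream site, B-OSN-2, was kept. They were chosen by genotype, as the clones labelled BOSN1.COSN123 (clones C4 and E6) or A.BOSN1.COSN123 (clone B1), and hold 6 of the 142 samples of the series, that is, the early and late fractions of 3 of the 66 libraries in the table. The cells were F121-9, mESCs with 1 musculus and 1 castaneus (CAST) homolog of each chromosome, grown in 2i and LIF. In E/L Repli-seq, cells are labelled with BrdU for 2 h, sorted by DNA content into early and late S phase, and the labelled DNA of each fraction is sequenced. The measure of replication timing (RT) is log2 of early over late reads in 50 kb windows, given for each homolog, and is above 0 for early and below 0 for late windows.

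In these genotypes and those compared with them, every deletion lay on the musculus homolog, and the unmodified CAST homolog of the same clone was the control. ∆BOSN1.COSN123 lacked B-OSN-1 and the 3 OSN sites of ERCE C (C-OSN-1, C-OSN-2 and C-OSN-3), and kept ERCE A and B-OSN-2. ∆A.BOSN1.COSN123 lacked the same 4 sites and also ERCE A. Other genotypes served for comparison: the parental deletions ∆COSN123 (4 cultures of clone A10) and ∆A.COSN123 (clones B7, C9, D8 and H10), and the further deletions ∆BOSN12.COSN123 (clone A2) and ∆A.BOSN12.COSN123 (clones A6 and C11), in which B-OSN-2 was lost too. The loss of the 3 C OSN sites was thus shared by all 6 genotypes, and none of them tests the loss of B-OSN-1 alone. The lines are single-cell CRISPR clones, ∆A.BOSN1.COSN123 is 1 clone with no replicate, and the cultures of ∆COSN123 come from 1 clone, so p-values measure the spread between these clones and cultures. RT holds no expression values, so the cell type could not be checked against marker genes.

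Early replication control elements (ERCEs) are stretches of DNA that a domain needs in cis to replicate early. OSN sites are places where the pluripotency factors OCT4, SOX2 and NANOG bind together, and those with RT activity were named subERCEs. ERCEs A, B and C lie in the Dppa2/4 domain, which replicates early in pluripotent cells and late after differentiation. Its genes include Dppa2 and Dppa4, whose products bind DNA as partners and activate genes of the early embryo, and Morc1, which acts in germ cells to silence transposons.

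B-OSN-1 was the 377 bp interval chr16:48422340-48422716 (mm10). It overlapped no annotated gene, lay 8520 bp upstream of the start of Morc1 and 9923 bp from the start of Gm5485, and was separated by 12841 bp from B-OSN-2 (chr16:48435558-48436053, 496 bp), which lay in an intron of Morc1. The start of Morc1 (B-TSS) and both B OSN sites fell in the same 50 kb window, chr16:48400001-48450000, and the deposited values were smoothed over 300 kb, so the RT curve cannot place an effect on one of these sites by position. ERCE A (chr16:48308248-48311866, 3619 bp) lay within Dppa2, in the window chr16:48300001-48350000, and the 3 C OSN sites lay in the window chr16:48600001-48650000. The study places an OSN site and an active start of Dppa2 in ERCE A, and the deletion of A removes both. The annotated start of Dppa2 used here (base 48303908) lies outside ERCE A, in the same window. The guide pair that removed B-OSN-1 is shown because its cuts set the edges of the deletion, with the PAM in capitals. The first guide lies on the minus strand at chr16:48422334-48422356 and the second on the plus strand at chr16:48422700-48422722.
B-OSN-1-G1: tggattgtgagtactctagcTGG
B-OSN-1-G2: gctctataaagatgcaaatgAGG
Both matched the genome exactly, and the predicted cuts were next to bases 48422340 and 48422716, the edges of the interval.

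The DNA lost and the DNA kept are shown next to compare them, as plus-strand mm10 reference letters, which are not read from the musculus homolog of these clones. The B-OSN-1 stretch is chr16:48422423-48422722, which runs past the end of the deletion to the end of the second guide's PAM, and the B-OSN-2 stretch is chr16:48435656-48435955. Capitals mark the octamer ATGCAAAT, the sequence that OCT4 binds, and a SOX core, CATTGT, on the minus strand.
B-OSN-1: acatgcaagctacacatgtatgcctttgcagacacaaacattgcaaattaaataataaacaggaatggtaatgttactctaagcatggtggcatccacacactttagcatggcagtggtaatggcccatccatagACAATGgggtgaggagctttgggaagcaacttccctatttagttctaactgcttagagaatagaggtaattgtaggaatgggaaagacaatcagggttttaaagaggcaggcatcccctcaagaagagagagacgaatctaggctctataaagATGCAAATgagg
B-OSN-2: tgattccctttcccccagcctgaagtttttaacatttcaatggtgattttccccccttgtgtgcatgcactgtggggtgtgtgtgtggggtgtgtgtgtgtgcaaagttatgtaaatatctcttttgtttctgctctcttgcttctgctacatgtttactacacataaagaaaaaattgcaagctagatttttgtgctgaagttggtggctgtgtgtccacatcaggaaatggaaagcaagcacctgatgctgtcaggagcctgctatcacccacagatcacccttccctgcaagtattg
Both motifs were searched on both strands and do not overlap. The octamer stood at chr16:48422711-48422718, where 6 of its 8 bases were inside the deleted interval, and it filled bases 12 to 19 of the second guide, counted from the 5′ end. It was not in the 40 bases around the predicted junction. The SOX core began at base 48422558, inside the deletion. Counted over whole deleted intervals, the octamer had 0 full matches in B-OSN-1 and in B-OSN-2. It also had 0 in the OSN site of ERCE A (A-OSN-1) and in each C OSN site. The SOX core had 1 match in B-OSN-1, 0 in B-OSN-2 and 2 in A-OSN-1. In C-OSN-1, C-OSN-2 and C-OSN-3 it had 2, 1 and 0. Of 32851 RefSeq promoters of 300 bases (GRCm38), 1.74% held the octamer and 12.6% the SOX core, on either strand. These shares are no like background for the whole deleted intervals, which were 377 to 1571 bp long. The B-OSN-1 stretch was set to end with the guide that holds the octamer, so that match was fixed by the choice of stretch. A match is a description of these letters only, and the junctions of the 3 clones were not analysed here.

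A difference between libraries has to be given before the results. Clones C4 and E6 had no CAST value on chromosome 11, and their musculus homolog was later than CAST across the other autosomes, by a median of −0.11 in both (log2), with a median below 0 on 18 of 18 chromosomes. The same was seen in each of the 6 libraries of the series in which CAST chromosome 11 had no value and musculus was complete (−0.11 to −0.10), among them ∆BOSN12.COSN123. The other 11 libraries of the 6 genotypes had medians of −0.01 to 0.00, and clone B1, with values on all chromosomes, had −0.01. Elsewhere in the series, libraries without CAST chromosome 13 had −0.08 and −0.07, those without 14 had −0.05 and −0.01. The library without CAST chromosome 16 had −0.03. Libraries with values on every chromosome of both homologs ran from −0.03 to 0.02. In C4 and E6 the offset depended on RT: it was −0.16 and −0.15 in windows with RT below −0.5, and −0.03 and −0.02 above 1. Its cause was not tested. The areas, the counts over the domain and the limma estimates of the main windows that it touches are therefore also given after centring, in which the median allele difference of windows of like RT in the same library was subtracted, a setting chosen after the data were seen. RT levels, and differences of single clones by window or stretch, are as deposited unless stated. A value was present on both homologs in 80.5% (C4), 83.7% (E6) and 88.8% (B1) of windows.

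In all 3 clones the musculus homolog without B-OSN-1 still formed an early peak over the Dppa2/4 domain, but a lower one than its CAST homolog. The musculus peak was in the same window in the 3 clones, chr16:48350001-48400000, at an RT of 0.67 in C4, 0.72 in E6 and 0.40 in B1. The CAST peak was 1.43 in C4 and 1.23 in E6, both at chr16:48400001-48450000, and 1.36 in B1, at chr16:48350001-48400000. Over the core of the domain (chr16:48200001-48600000), the mean RT of musculus was 0.53 in C4, 0.52 in E6 and 0.32 in B1, against 1.12, 0.99 and 1.10 on CAST. None of the 8 core windows was late (below 0) on musculus in any of the 3 clones. Over the 40 windows of the domain interval (chr16:47500001-49500000), 27, 28 and 30 windows of musculus were late in C4, E6 and B1, and 19, 21 and 20 windows of CAST. Homologs of a library thus differed in the height of the peak and in where the late flanks began.

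**Figure D1:**
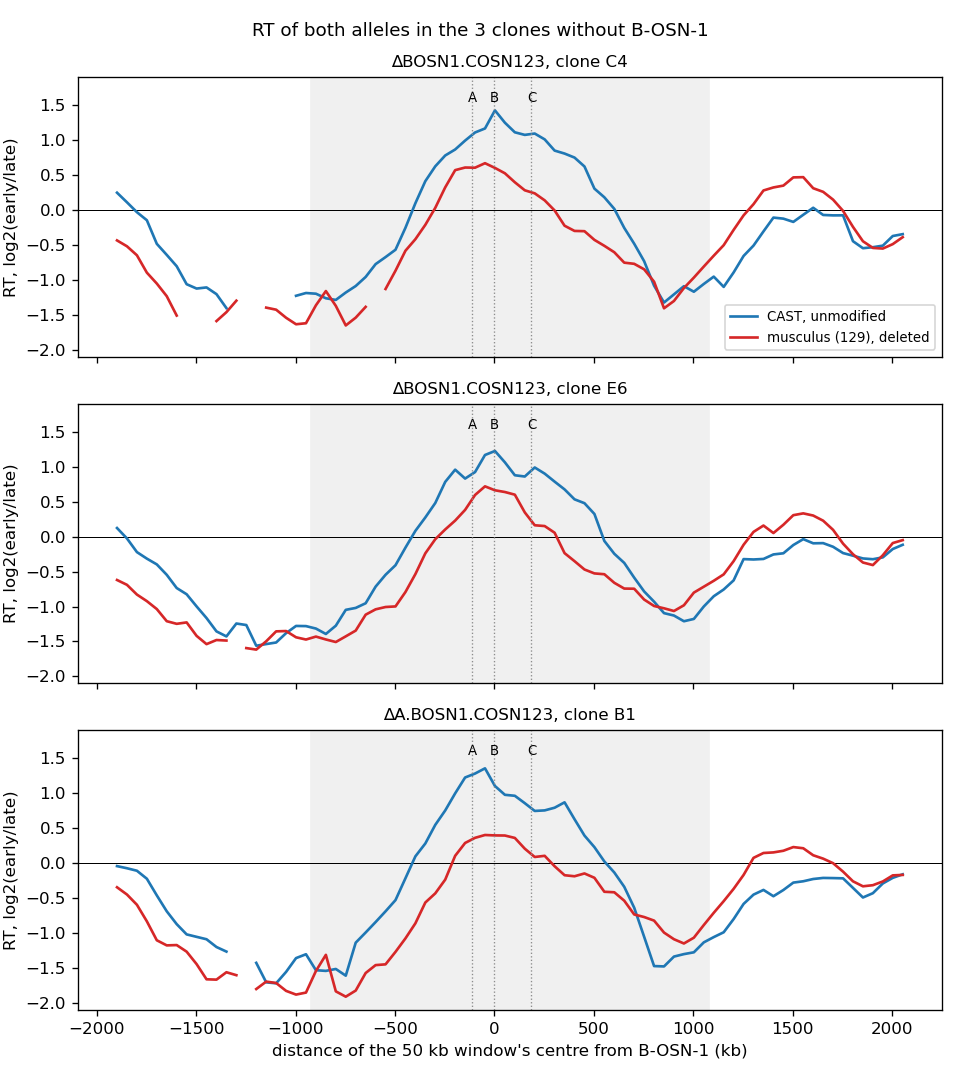
RT (log2 of early over late reads, y axis) of the deleted musculus (red) and unmodified CAST (blue) homolog against the distance of each 50 kb window from B-OSN-1 in kb (x axis) in clones C4, E6 and B1. Dotted lines mark ERCE A, B-OSN-1 (B) and the C OSN sites (C), grey marks the domain interval, and gaps are windows without a value: the musculus peak reaches 0.67, 0.72 and 0.40 and stays under the CAST peak of 1.43, 1.23 and 1.36.

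By limma, 25 of the 31 windows tested in the domain interval were later on musculus than on CAST in ∆BOSN1.COSN123 and 0 earlier, where 19.3% of all 30996 autosomal windows were later and 5.62% earlier. No window of the domain was earlier at an unadjusted p under 0.05 either. After centring, 19 of the 31 were later and 1 earlier. Over all 30996 windows, 2856 (9.21%) were then later and 2959 earlier. Without clone C4 the count fell to 12, and without E6 to 17. In ∆A.BOSN1.COSN123, 20 of the 31 windows were later and 1 was earlier (chr16:49200001-49250000, 0.65), where 3.41% of all windows were later and 3.02% earlier. These counts hold any fixed difference between musculus and CAST as well as the deletions.

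Of these 3 clones only B1 lacked ERCE A, and the shape of its delay differed from that of C4 and E6. In the window with B-OSN-1, B-OSN-2 and the starts of Morc1 and Gm5485, the allele difference was −0.82 in C4, −0.56 in E6 and −0.71 in B1, so that the clone without A lay between the others. In the window that holds ERCE A and the start of Dppa2, it was −0.50 in C4, −0.33 in E6 and −0.92 in B1. In the window with the start of Dppa4 it was −0.39, −0.45 and −0.94. Here the value of B1 was below both others. The parental deletions, which keep B-OSN-1, had a like order. In the windows of ERCE A and of the start of Dppa4, the means were −0.42 and −0.54 in ∆COSN123. In ∆A.COSN123 they were −0.82 and −0.90. In the window of the C OSN sites, lost in all 3 clones, it was −0.86, −0.83 and −0.66, and B1 had the smallest delay. After centring, the means of C4 and E6 in the windows of B-OSN-1, ERCE A, the start of Dppa4 and the C OSN sites were −0.62, −0.33, −0.31 and −0.73, and B1 had −0.70, −0.91, −0.93 and −0.65. The largest delay was to the right of ERCE C in each clone: −1.05 in C4 at chr16:48800001-48850000, −0.95 in E6 at chr16:48850001-48900000 and −1.04 in B1 at chr16:48750001-48800000. Of the autosomal windows of the same library, 0.688%, 0.931% and 0.272% had a difference as low or lower. In ∆COSN123, the largest delay was −1.63, −1.06 and −1.40 in cultures 1, 3 and 4, at chr16:48750001-48800000. In culture 2 it was −0.89, at chr16:48200001-48250000. In ∆A.COSN123 it lay left of the B-OSN-1 window, with −1.06, −1.01, −1.06 and −1.06 in B7, C9, D8 and H10.

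All 11 protein-coding genes that start in the domain did so in a window where musculus was later in C4, E6 and B1 alike. The differences were −1.05 to −0.39, −0.95 to −0.33 and −1.04 to −0.20. Most windows of the domain with a value were later on musculus too: 35 of 39 in C4, 35 of 40 in E6 and 32 of 40 in B1. Several of the genes share a window, and C4 and E6 carry the offset given above, so the count sets these genes apart from no others. Those in the core, Dppa4, Dppa2, Gm5485 and Morc1, had an early start window (RT above 0) on musculus in all 3 clones. The start window of Dppa4 had an RT on musculus of 0.61 in C4, 0.38 in E6 and 0.29 in B1, and that of Morc1 of 0.60, 0.66 and 0.40. The start windows of Trat1 and of the Retnl genes, to the right of ERCE C, were early on CAST and late on musculus. The same held for the mean RT of the parental deletions, which keep B-OSN-1. In the Trat1 window, ∆COSN123 had 0.84 on CAST and −0.36 on musculus, and ∆A.COSN123 had 0.51 and −0.30. For Trat1, a T cell receptor adaptor, CAST had 0.81, 0.68 and 0.87 in C4, E6 and B1, and musculus had −0.22, −0.24 and −0.17. Retnlb and Retnla, genes of secreted resistin-like proteins, shared a window with 0.75, 0.53 and 0.63 on CAST and −0.30, −0.35 and −0.19 on musculus. Retnlg, a gene of the same family, had 0.62, 0.48 and 0.40 on CAST and −0.30, −0.47 and −0.15 on musculus. Dzip3, a ubiquitin ligase, and Cip2a, an inhibitor of the phosphatase PP2A, share a window farther right that was late on musculus in all 3 clones, and had 0.18, −0.06 and 0.03 on CAST, with differences of −0.69, −0.48 and −0.43. Myh15, a myosin heavy chain, was the farthest to the right, late on both homologs (−0.26, −0.38 and −0.34 on CAST), and had differences of −0.50, −0.37 and −0.20.

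The delay over the whole domain was summed as ∆area, the area between the musculus and CAST curves over the domain interval, in log2 units times 50 kb windows. Pairs of neighbouring windows in which either lacked a value were left out, so libraries with more missing windows have sums over fewer pairs. C4 had 37 pairs, E6 39 and B1 39. It was −17.3 in C4 and −15.9 in E6, which gives −16.6 ± 1.00 for ∆BOSN1.COSN123 (SD, n = 2 clones), and −18.5 in the clone of ∆A.BOSN1.COSN123. Of the 2 Mb tiles across the autosomes of the same library, 2.99% in C4, 4.89% in E6 and 0.389% in B1 had an area as low or lower. After centring on windows of like RT, C4 had −12.4 and E6 −10.7 (mean −11.5 ± 1.2), and B1 had −18.1. The offset thus changed the areas of C4 and E6, while that of B1 moved by less than the SD between the 2 other clones. The pooled SD of ∆area within the 6 genotypes was 2.37 (8 degrees of freedom).

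**Figure D2:**
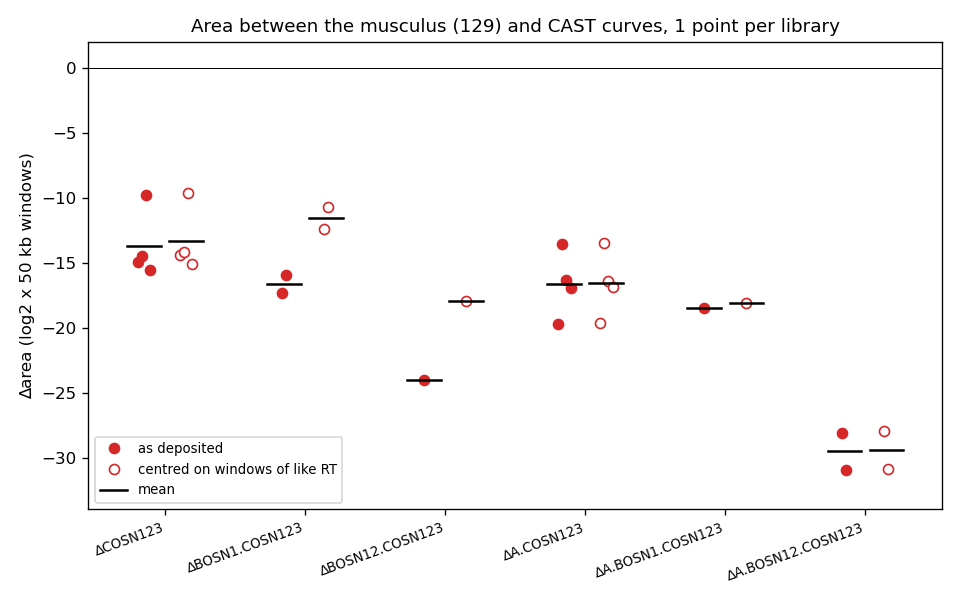
∆area (y axis, log2 units times 50 kb windows) of each library in the 6 genotypes (x axis), as deposited (filled) and after centring on windows of like RT (open), with black lines for means. As deposited, ∆BOSN1.COSN123 (−17.3 and −15.9) lies below ∆COSN123, and centred (−12.4 and −10.7) it lies within its range, while the clones without B-OSN-2 lie lower than the clones that keep it in the same background.

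Whether the loss of B-OSN-1 adds to the loss of the C OSN sites was read from ∆BOSN1.COSN123 minus ∆COSN123. The ∆area of ∆COSN123 was −13.7 ± 2.65 (SD, n = 4 cultures, −15.5 to −9.76), above both clones without B-OSN-1, and the difference was −2.96 (exact two-sided permutation test over libraries, p = 0.267, adjusted p = 0.556 over 5 contrasts, smallest possible p 0.0667). The ∆COSN123 areas were sums over 37, 39, 32 and 34 pairs of windows in cultures 1 to 4. The value of −9.76 came from the culture with 32 pairs. As deposited, the mean allele difference over domain windows was −0.43 ± 0.04 in ∆BOSN1.COSN123 and −0.37 ± 0.07 in ∆COSN123. The direction of the difference in ∆area turned with the control. After centring, the difference was 1.79 (exact p = 0.4), and with the mean of 51 unmodified CAST homologs as a common control it was 2.17 (exact p = 0.0667). The cultures of ∆COSN123 come from 1 clone, so these p-values do not measure the spread between clones of that genotype. The musculus homolog itself had a core RT of 0.53 in C4 and 0.52 in E6, above each culture of ∆COSN123 (0.23 to 0.51, mean 0.41 ± 0.12). The CAST homolog had a core RT of 1.12 and 0.99, against 0.82 to 1.04. Both homologs of the clones without B-OSN-1 thus had higher means than those of ∆COSN123. The core allele difference was −0.53 ± 0.09 in ∆BOSN1.COSN123 and −0.51 ± 0.08 in ∆COSN123, and after centring this order turned, with −0.44 ± 0.09 and −0.50 ± 0.08.

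By window, limma called 0 of the 57 windows tested in the domain and the 1 Mb on either side of it in this contrast, and 0% of all autosomal windows, and in the domain 0 of 31 windows had an unadjusted p under 0.05. After centring, 0 windows of the domain were later and 2 earlier at such a p. Over all autosomes 3834 windows had such a p as deposited, and the median estimate over all 30996 windows tested was −0.11, the size of the offset of C4 and E6. In the window of B-OSN-1 the difference was −0.23 (95% interval −0.53 to 0.07, limma adjusted p = 0.501) as deposited, where C4 was below all cultures of ∆COSN123 (−0.70 to −0.34) and E6 among them. In the start windows of Dppa4 and Dppa2 it was 0.12 (−0.15 to 0.39) and 0.00 (−0.26 to 0.27). After centring, the estimates in these 3 windows were −0.16 (−0.46 to 0.14), 0.21 (−0.06 to 0.48) and 0.07 (−0.19 to 0.34). The estimates over the domain ran from −0.24 to 0.27, with 19 windows below 0 and 12 above, and after centring 9 were below and 22 above. As deposited, these intervals include the offset of C4 and E6, and in both settings ∆COSN123 is a single clone. They are therefore no bounds on the effect of losing B-OSN-1, and do not show that the RT curves were the same.

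**Figure D3:**
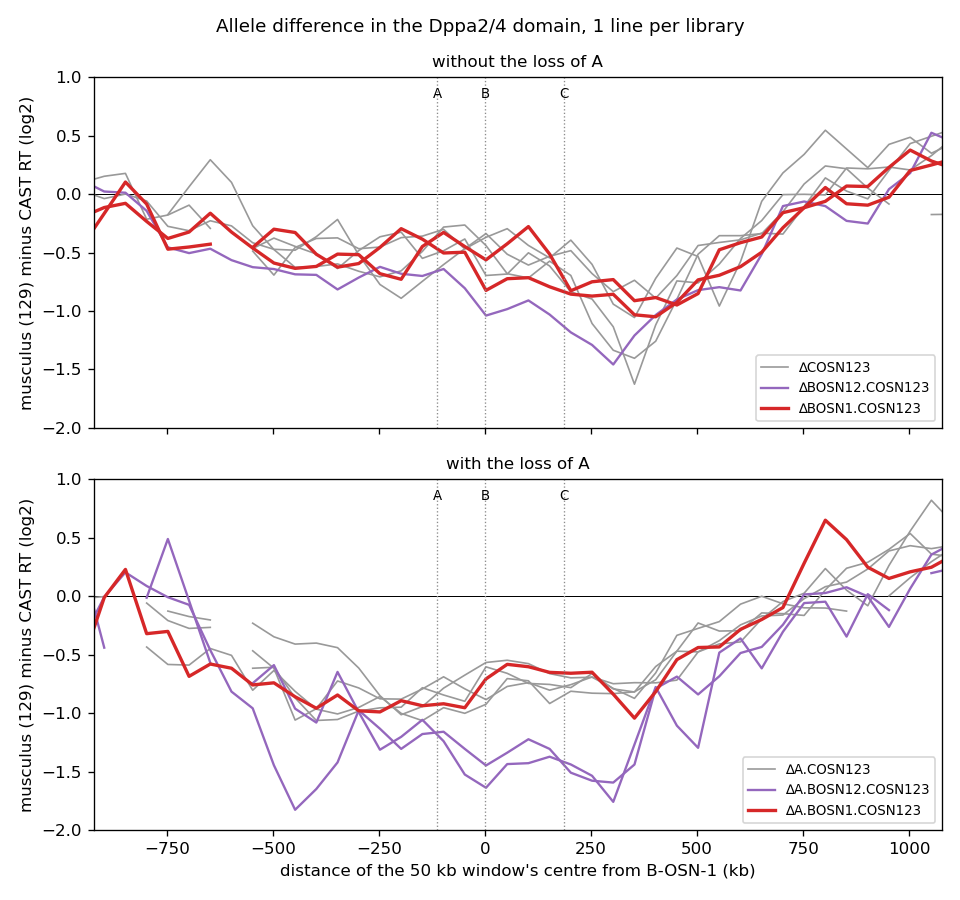
Difference between the musculus and CAST homologs (y axis, log2) in the domain interval against the distance from B-OSN-1 in kb (x axis), as 1 line per library, for genotypes that keep ERCE A (top) and lack it (bottom); dotted lines mark ERCE A, B-OSN-1 (B) and the C OSN sites (C). In the window of B-OSN-1, clones C4 and E6 (red, top) have −0.82 and −0.56 where ∆COSN123 (grey) runs from −0.70 to −0.34, B1 (red, bottom) has −0.71 within the −0.92 to −0.57 of ∆A.COSN123, and the clones that also lack B-OSN-2 (purple) are lower.

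The same addition in the background without ERCE A was read from ∆A.BOSN1.COSN123 minus ∆A.COSN123. Clone B1 had a ∆area of −18.5, inside the range of the 4 clones of ∆A.COSN123 (−19.7 to −13.6, mean −16.6 ± 2.52), and the difference was −1.88 (exact permutation p = 0.6, smallest possible 0.2). After centring it was −1.47. These areas were sums over 39 pairs of windows in B1 and over 37, 30, 34 and 35 in B7, C9, D8 and H10. The mean allele difference over the domain windows with a value was −0.460 in B1 and −0.455 ± 0.045 in ∆A.COSN123, as deposited. The core RT of musculus was 0.32 in B1, higher than in each clone of ∆A.COSN123 (0.15 to 0.28). CAST had 1.10 in B1, against 0.96 to 1.08, so that B1 was the highest on both homologs. The core allele difference of −0.78 in B1 fell within the range of −0.91 to −0.72 in ∆A.COSN123.

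Limma called 0 of the 57 windows in this contrast, and 0.00323% of all autosomal windows. In the window of B-OSN-1 the difference was 0.04 (95% interval −0.35 to 0.42), and in the start windows of Dppa4 and Dppa2 −0.04 (−0.39 to 0.31) and −0.10 (−0.44 to 0.24). In the domain, 0 windows were later and 3 earlier at an unadjusted p under 0.05, against 1271 windows with such a p over all autosomes. These 3 lay at the right edge of the domain, where B1 was late on both homologs and CAST was the later (−1.47 on CAST and −0.82 on musculus at chr16:49200001-49250000). The area right of the B-OSN-1 window was −5.39 in B1 and −6.31 to −6.01 in ∆A.COSN123.

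The loss of ERCE A where B-OSN-1 and the C OSN sites were already gone was read from ∆A.BOSN1.COSN123 minus ∆BOSN1.COSN123. The difference in ∆area was −1.87 as deposited and −6.54 after centring, with exact permutation p of 0.667 and 0.333, the second being the smallest possible with 1 clone against 2. The delay was also divided at the window of B-OSN-1, a choice made after the data were seen. Left of the B-OSN-1 window (chr16:47500001-48400000), the area was −5.68 in C4, −7.31 in E6 and −11.6 in B1. Right of it (chr16:48450001-49500000), it was −10.2, −7.62 and −5.39. The left side thus held 35.7%, 48.9% and 68.3% of the sum of both sides. In the libraries with B-OSN-1, this share was 42.5% ± 7.93 (SD, n = 4) with ERCE A (∆COSN123) and 58.8% ± 6.71 (SD, n = 4) without it (∆A.COSN123). After centring, the left areas were −3.65, −4.99 and −11.4, and the right areas −7.45, −4.84 and −5.18. The left area of B1 was thus the largest in both settings, while its right area was the smallest as deposited and lay between those of C4 and E6 after centring.

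Limma called 0 of the 57 windows in this contrast too, and 0% of all autosomal windows, with 1706 windows over all autosomes at an unadjusted p under 0.05. In the domain, 5 windows were later in B1 and 3 earlier at such a p (8 and 1 after centring). All 11 windows tested left of the B-OSN-1 window had an estimate below 0, from −0.52 to −0.28, and 14 of 19 windows right of it had one above 0. After centring, the 11 windows on the left had −0.62 to −0.43, and on the right 9 windows were below 0 and 10 above. In the start windows of Dppa4 and Dppa2 the estimates were −0.52 (95% interval −0.90 to −0.14) and −0.50 (−0.88 to −0.13), each with a limma adjusted p of 0.854. In the window between Dppa2's and that of B-OSN-1 the estimate was −0.48 (−0.85 to −0.12), and in the window of B-OSN-1 it was −0.01 (−0.44 to 0.41). After centring, these 4 windows had −0.62, −0.58, −0.56 and −0.08. Whether A loss acted differently with and without B-OSN-1 was tested as (∆A.BOSN1.COSN123 minus ∆BOSN1.COSN123) minus (∆A.COSN123 minus ∆COSN123). Limma called 0 of the 57 windows, and 0.00323% of all autosomal windows, and 0 windows of the domain were later and 3 earlier at an unadjusted p under 0.05, against 1558 over all autosomes. In the start windows of Dppa4 and Dppa2 this difference was −0.16 (−0.60 to 0.28) and −0.10 (−0.53 to 0.33), and after centring −0.24 (−0.68 to 0.20) and −0.17 (−0.60 to 0.26). At an unadjusted p under 0.05, 1 window of the domain was then later and 2 earlier.

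**Figure D4:**
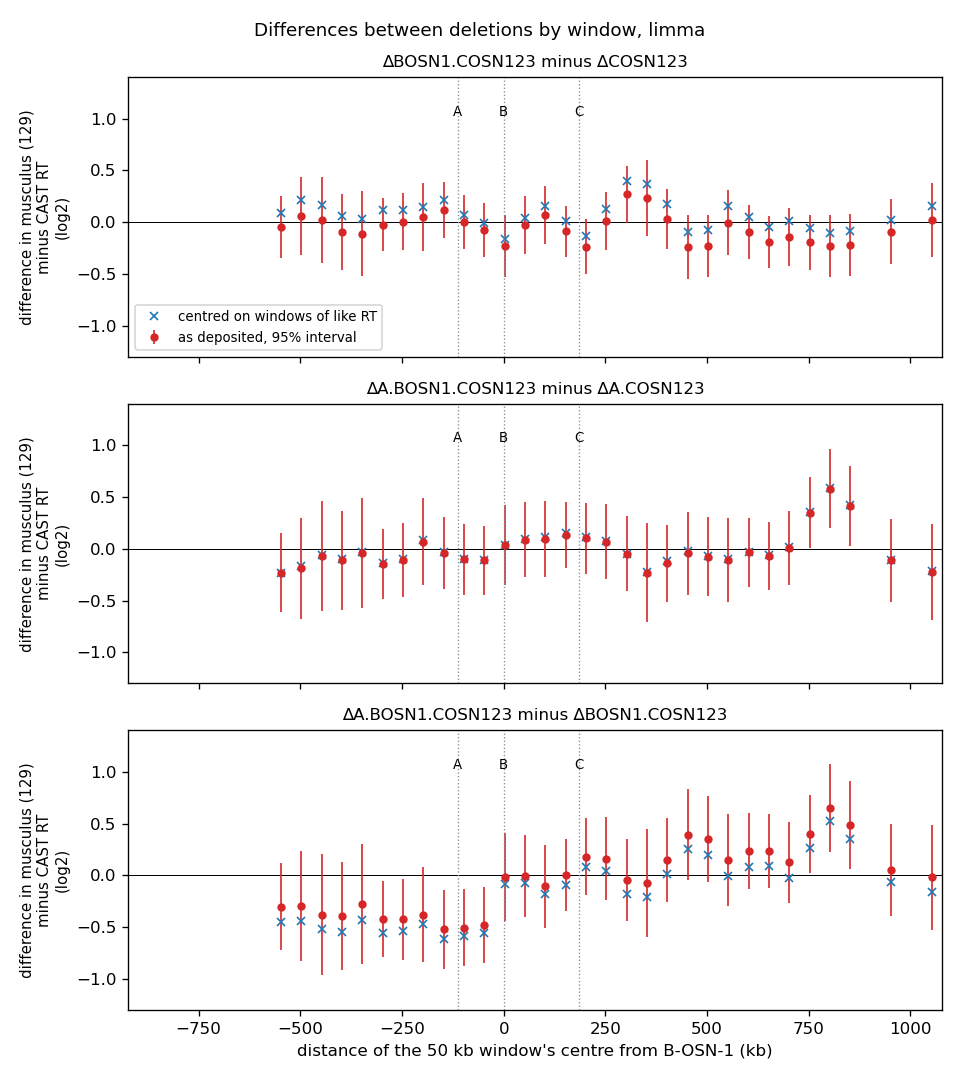
Differences between genotypes in the allele difference (y axis, log2) by 50 kb window against the distance from B-OSN-1 in kb (x axis) for 3 contrasts, as limma estimates with 95% intervals (red) and as estimates after centring on windows of like RT (blue crosses); dotted lines mark ERCE A, B-OSN-1 (B) and the C OSN sites (C). Adding the loss of B-OSN-1 gives estimates on both sides of 0 (top, −0.24 to 0.27), and adding the loss of A gives estimates of −0.52 to −0.28 left of the B-OSN-1 window (bottom).

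What the intact B-OSN-2 stood for was read from the clones that lost it as well. Clone A2 of ∆BOSN12.COSN123 shares the offset of C4 and E6 and also has no CAST value on chromosome 11. It had a ∆area of −24.0, against the mean of −16.6 in ∆BOSN1.COSN123 (difference −7.35, and −6.43 after centring). The clones of ∆A.BOSN12.COSN123 had −28.1 and −30.9, against −18.5 in B1 (difference −11.0, and −11.4 after centring). Every clone that kept B-OSN-2 was thus less delayed than every clone of the same background that lacked it, but these designs set 1 clone against 2, and the exact permutation p of 0.333 was as small as they allow. In the window that holds both sites, musculus had an RT of 0.60 in C4 and 0.66 in E6 and 0.03 in A2, and 0.40 in B1 against −0.41 and −0.35 in the clones of ∆A.BOSN12.COSN123. The limma difference there was −0.35 (95% interval −0.77 to 0.08; after centring −0.30, −0.72 to 0.12) without the loss of A and −0.84 (−1.26 to −0.41, adjusted p = 0.436) with it. Limma called 0 of the 57 windows in both contrasts, with 0% and 0.00323% of all autosomal windows called. In the domain, 5 and 11 windows were later at an unadjusted p under 0.05 and 0 earlier (2 and 11 later after centring), against 907 and 1610 windows with such a p over all autosomes.

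Outside the domain the homologs differed in ways that were also seen in 3 libraries of the series in which musculus was unmodified and the deletion lay on CAST. In the neighbouring domain to the right (chr16:49650001-50050000), musculus was the earlier homolog, by a mean of 0.51 in C4, 0.37 in E6 and 0.50 in B1. It was earlier in each of 50 libraries with a deletion on musculus, and in 3 of 3 with an unmodified musculus homolog. Ift57, a gene of intraflagellar transport, and Cd47, whose product protects cells from being engulfed, start there, with differences of 0.58, 0.21 and 0.41 and of 0.43, 0.31 and 0.63 in C4, E6 and B1. In the left flank (chr16:46500001-47500000), which is late on both homologs, musculus was later by −0.50, −0.33 and −0.38, as it was in 48 of the 50 libraries and in 3 of 3 with unmodified musculus. In the core, the 3 libraries with a deletion on CAST had differences of −0.34, −0.05 and 0.15, which include any effect of that deletion and so are no baseline without a deletion for the −0.59, −0.47 and −0.78 of the clones without B-OSN-1.

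The clones of ∆BOSN1.COSN123 were closer to each other than to B1 on the deleted homolog. Over the windows of the domain, musculus in C4 and E6 differed by a mean of 0.12 in absolute terms (39 windows), against 0.22 between C4 and B1 and 0.23 between E6 and B1. On CAST the gaps were 0.12, 0.16 and 0.15. With 3 clones, this is a description with no test.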

How the data were processed

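E/L Repli-seq profiles of the 3 libraries without B-OSN-1 were set against 11 libraries of 5 related genotypes, grouped by the labels, in one table of 138 columns over 49264 windows of 50 kb. Per the labels and the study's methods, the authors trimmed reads (Trim Galore, cutadapt), aligned them to N-masked mm10 (bowtie2), split them by homolog (SNPsplit), removed duplicates, counted windows (bedtools) and deposited log2 early over late ratios, scaled, quantile-normalised and loess-smoothed over 300 kb. Tool versions were not given in the sources used here. Smoothing ties neighbouring windows together, so counts of windows are not counts of independent events. Only ratios are given, so the depth is unknown and precision comes from the spread between libraries.

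The musculus strain was 129. The musculus (129) minus CAST difference was computed in each window and library. ∆area was its trapezoid sum over chromosome 16, 47.5 to 49.5 Mb, leaving out missing windows, and genotypes were compared by exact two-sided permutation over libraries with Benjamini-Hochberg adjustment over 5 contrasts. The study's random-region p was not computed. Limma 3.58.1 (R 4.3.3; lmFit, eBayes) was fitted to 14 libraries in 6 groups (8 residual degrees of freedom) over the 30996 autosomal windows with a value in each library, with adjustment over all windows and a threshold of 0.05. ∆A.BOSN1.COSN123 and ∆BOSN12.COSN123 have 1 library each. Their intervals and p-values thus rest on the spread within the other genotypes, which includes repeat cultures of clone A10. Both methods were tested on simulated data. Windows named are those holding the deleted sites, B-OSN-2, B-TSS and the starts of Dppa2, Dppa4 and Morc1, the earliest window of each homolog and the largest delay, with protein-coding genes given by stretch. Genotypes, stretches and windows were chosen with earlier results of these data known. Alternatives covered the interval, the control, interpolation, the libraries and windows in the fit, variance shrinkage, clones as units and single libraries left out. Both centrings and the division at B-OSN-1 were added after the data were seen. Sites and guides came from the study's lists, sequence from mm10, genes from GENCODE and promoters from RefSeq. A second labelled clone of ∆BOSN12.COSN123 was not analysed here. Python 3.11.15 (numpy 2.4.6, pandas 2.3.3, matplotlib 3.10.9) was used.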

Additional observations from a re-analysis of the deposited data

How the results depend on the processing

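No paired analysis was possible because the clones without B-OSN-1 carry clone names and no replicate numbers shared with other genotypes. The ∆area of ∆BOSN1.COSN123 moved from −16.6 to −12.6 over 48 to 49 Mb, to −13.8 and −9.31 against the mean unmodified CAST and musculus homologs, and to −12.3 and −11.5 after centring on the median and on windows of like RT. That of ∆A.BOSN1.COSN123 moved from −18.5 to −14.7 over 48 to 49 Mb and −14.2 against unmodified musculus. The difference between ∆BOSN1.COSN123 and ∆COSN123 turned to 2.17 and 2.68 with those 2 controls (exact permutation p = 0.0667 for each, the smallest possible). With the 2 centrings it turned to 1.14 and 1.79. The difference between ∆A.BOSN1.COSN123 and ∆A.COSN123 turned to 0.0897 against unmodified musculus. The CAST control was the mean of 51 homologs. The musculus control was the mean of only 3, from libraries with a deletion on CAST. The permutation counts cultures of a single ∆COSN123 clone as units. The shift of C4 and E6 moves with their offset between homologs, and the part of this offset in the other changes was not tested. The remaining contrasts of ∆area kept their direction.

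Left-out libraries gave −17.3 to −15.9 for the ∆area of ∆BOSN1.COSN123, −3.67 to −1.65 and −2.91 to −0.857 for the added loss of B-OSN-1 with and without A, −2.58 to −1.16 for the added loss of A, and −8.06 to −6.64 and −12.4 to −9.62 for the added loss of B-OSN-2 with and without A. Windows of the domain called in ∆BOSN1.COSN123 against CAST numbered 12 to 17, with 12 when C4 was left out, and windows over all autosomes 3061 to 3357, against 7718 in the full fit. The contrasts between genotypes called 0 windows of the domain in each alternative that could be fitted. Over all autosomes, ∆BOSN1.COSN123 minus ∆COSN123 called 0 to 30 windows (30 without culture 1 of ∆COSN123, 1 without culture 3) and 26 with all libraries in the fit. ∆A.BOSN1.COSN123 minus ∆A.COSN123 called 1, and 0 with all libraries, as did ∆A.BOSN12.COSN123 minus ∆A.BOSN1.COSN123 (0 to 1 with a library left out, 0 without clone A6). ∆BOSN12.COSN123 minus ∆BOSN1.COSN123 called 1 with clones as units. The contrast of A loss with and without B-OSN-1 called 0 to 2 with a library left out (2 without clone D8, 0 without C4 or E6), and 0 with all libraries and with clones as units. The fit with all libraries had 18721 windows and none on chromosome 16.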
